A study of Liolophura hirtosa with 16 samples.

Results

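Among 493 sequences measured in the chiton Acanthopleura hirtosa (listed by its other name, Liolophura hirtosa), 67 had their highest mean in the radula section with calcium-deposited teeth, and in 15 of them that mean stood clear of every other tissue by a set margin. These 15 were covered by 65 of the 2240 probes on the array. The 15 were chosen by measured values: on the log2 scale, after quantile scaling of the 16 arrays, the mean of the 4 calcium arrays lay at least 0.5 above the mean of immature teeth, of iron-deposited teeth and of foot muscle. A further clause dropped sequences that were at least 0.5 above foot muscle in all 3 radula sections with less than 1 between the sections, and it removed 0 candidates. Every difference from the calcium section given here is therefore a description without a test. The rule set no threshold on the sign or size of the difference between iron-deposited and immature teeth, apart from the clause above, and that difference was tested. Its test is not free of the selection, because the same immature and iron arrays entered the rule.

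The radula is the feeding organ of a chiton, a ribbon that carries rows of teeth and is scraped across rock. New tooth rows form at its rear as soft chitin and move forward as the ribbon grows, so that one radula holds every stage of mineralisation at once. In the major lateral teeth iron oxide is laid down first in the cap, and calcium phosphate later fills the core. The epithelium around each row supplies the minerals.

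RNA came from wild adults, 12 in all, with each radula cut into a section with immature teeth, one with iron-deposited teeth and one with calcium-deposited teeth, and with foot muscle taken as the fourth tissue. Equal amounts of RNA from 3 animals made up a pool, and 4 pools per tissue were hybridised, each to 1 single-colour array, which gave 16 arrays. No treatment or genotype entered the design, and all 4 tissues came from the same kind of animal. The labels name the radula samples as radula sac, so a section stands for the tissue around the teeth with whatever cells it held, and in such bulk RNA fewer cells of a type and less RNA per cell cannot be told apart. Levels are given as log2 of a probe's foreground over the mean of all probes on its array, averaged over the probes of a sequence. The deposited files name no gene beside a sequence: 16 words for genes of muscle, iron handling, chitin and mineral handling matched 0 probes. The tissue labels were therefore not checked against marker genes, and no function is given to any sequence.

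The files disagreed with each other about 4 of the 16 arrays. For immature replicates 2 and 4 and calcium replicates 2 and 4, the column of the deposited value table did not come from the scanner file recorded for that sample, but from the file of the same number in the other of these 2 tissues. With the value table, which the rule uses, the 4 arrays correlated at 0.979 to 0.994 with the other arrays of their labelled tissue over the 493 sequences and only at 0.685 to 0.723 with arrays of the opposite tissue. Over replicates 1 to 4, the slide sectors of the files as recorded were 1, 2, 3, 4 in immature and 2, 3, 4, 1 in iron. They were 3, 4, 1, 2 in calcium and 4, 1, 2, 3 in muscle. With the tissues of the value table they were 1, 4, 3, 2 in immature and 3, 2, 1, 4 in calcium. The scanner files as recorded would place each of the 4 arrays with the tissue it correlated with less. Beyond the correlations, which record is right was not tested. With the scanner files as recorded, background-corrected with normexp, 0 sequences met the rule. By the correlations, that setting mixes arrays of both kinds within the immature and the calcium group. Such mixing draws the 2 means together, so the result is no separate check on the peaks. With the same correction but with the tissues of the value table, 18 sequences met it, all 15 members among them. With the 4 arrays left out, 2 immature and 2 calcium arrays remained, and 16 sequences met it, again with all 15 members. Values below are those of the value table. Peaks and calls without the 4 arrays are given where named, and unscaled foreground is given with the scanner files assigned to tissues as in the value table. Median foreground per array ranged from 200.1 to 426.3 scanner units, and 0 to 2 probes per array, none of them a member's, were at the scanner's maximum of 65535.

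Probes were oligonucleotides of 35 to 40 bases. For the sequences with the largest calcium peaks, the probe with the largest peak is printed here 5′ to 3′, with the first and last base it covers in its sequence at the end of its name, because these letters are the only identity the files give.
Contig[0288]_281_315: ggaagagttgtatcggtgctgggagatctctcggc
Contig[0041]_32_70: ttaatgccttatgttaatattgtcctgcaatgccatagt
PlateF-A10-5-SMART_50_84: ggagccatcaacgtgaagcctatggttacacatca
Contig[0179]_337_371: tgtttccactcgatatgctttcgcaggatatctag

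The corresponding probe of the remaining sequence in this top group, PlateC-C10-5-SMART, belongs to a set of probes that share letters. Of the 15 members, 4 had a probe with a run of at least 20 identical bases in a probe of another sequence (26.7%), against 15 of the 493 sequences (3.04%), and the partner was a member every time. These 4 were Contig[0041], PlateC-C10-5-SMART, PlateF-A10-5-SMART and Contig[0258]. The shared probes are shown in 3 groups, added after the values were seen, with the run common to a group in capitals.
Contig[0041]_138_172: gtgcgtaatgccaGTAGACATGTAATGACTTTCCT
Contig[0258]_295_334: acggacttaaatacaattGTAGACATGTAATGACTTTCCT

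In the second group, probes of Contig[0258] and PlateF-A10-5-SMART overlapped.
Contig[0258]_320_356: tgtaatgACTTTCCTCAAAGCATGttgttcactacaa
PlateF-A10-5-SMART_332_366: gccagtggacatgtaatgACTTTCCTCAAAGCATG
PlateF-A10-5-SMART_350_384: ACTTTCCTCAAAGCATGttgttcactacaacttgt

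The third group joined Contig[0258] and PlateF-A10-5-SMART with PlateC-C10-5-SMART.
Contig[0258]_138_172: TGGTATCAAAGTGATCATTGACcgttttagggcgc
PlateC-C10-5-SMART_710_744: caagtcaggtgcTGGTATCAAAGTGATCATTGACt
PlateF-A10-5-SMART_130_164: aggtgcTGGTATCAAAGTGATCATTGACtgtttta

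All shared runs lay on the same strand. Probe Contig[0041]_138_172 matched PlateF-A10-5-SMART_332_366 over 26 bases with 1 difference, A16G, counted from 1 at the 5′ end of the first probe named. Probe PlateF-A10-5-SMART_130_164 matched Contig[0258]_138_172 over 29 bases with 1 difference, T29C, and PlateC-C10-5-SMART_710_744 over 29 bases with 0. Signal from one RNA on the probes of several of these sequences cannot be told apart, so the 4 are not counted as independent. Probes with such a run were then left out, also those with up to 2 differences, a step chosen after seeing the data. On the probes left, the calcium peak was 1.48 (log2) over 2 probes of Contig[0041] and 1.21 over 4 probes of PlateC-C10-5-SMART. It was 1.53 on the 1 such probe of PlateF-A10-5-SMART and 1.53 on the 1 of Contig[0258], in each the probe with the sequence's largest peak. These probes also entered the means that chose the members, so nothing is read from their peaks. In the other 11 members the longest run shared with a probe of another sequence was 10 to 13 bases.

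Contig[0288] had the largest calcium peak of the 15. Its log2 levels were -1.44, -1.35, -1.44 and -1.44 in the 4 immature arrays and -0.52, -0.62, -0.69 and -0.78 in the iron arrays. They were 2.22, 2.30, 2.15 and 2.05 in the calcium arrays and 0.02, -0.35, -0.24 and -0.38 in foot muscle. The calcium arrays stood well clear of the other 12, and muscle, not a tooth section, came second. The calcium mean was 2.18 ± 0.11 (SD, n = 4), which was 12.1-fold the immature, 7.12-fold the iron and 5.33-fold the muscle mean. The probe Contig[0288]_281_315 was picked for having the largest peak of this sequence, so its unscaled foreground is only a description. Calcium stood far above the others on it, while iron and muscle overlapped. The probe read 503, 371, 323 and 429 scanner units in immature, 705 to 1305 in iron, 577 to 871 in muscle, and 10131, 8182, 10494 and 8138 in calcium.

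**Figure D1:**
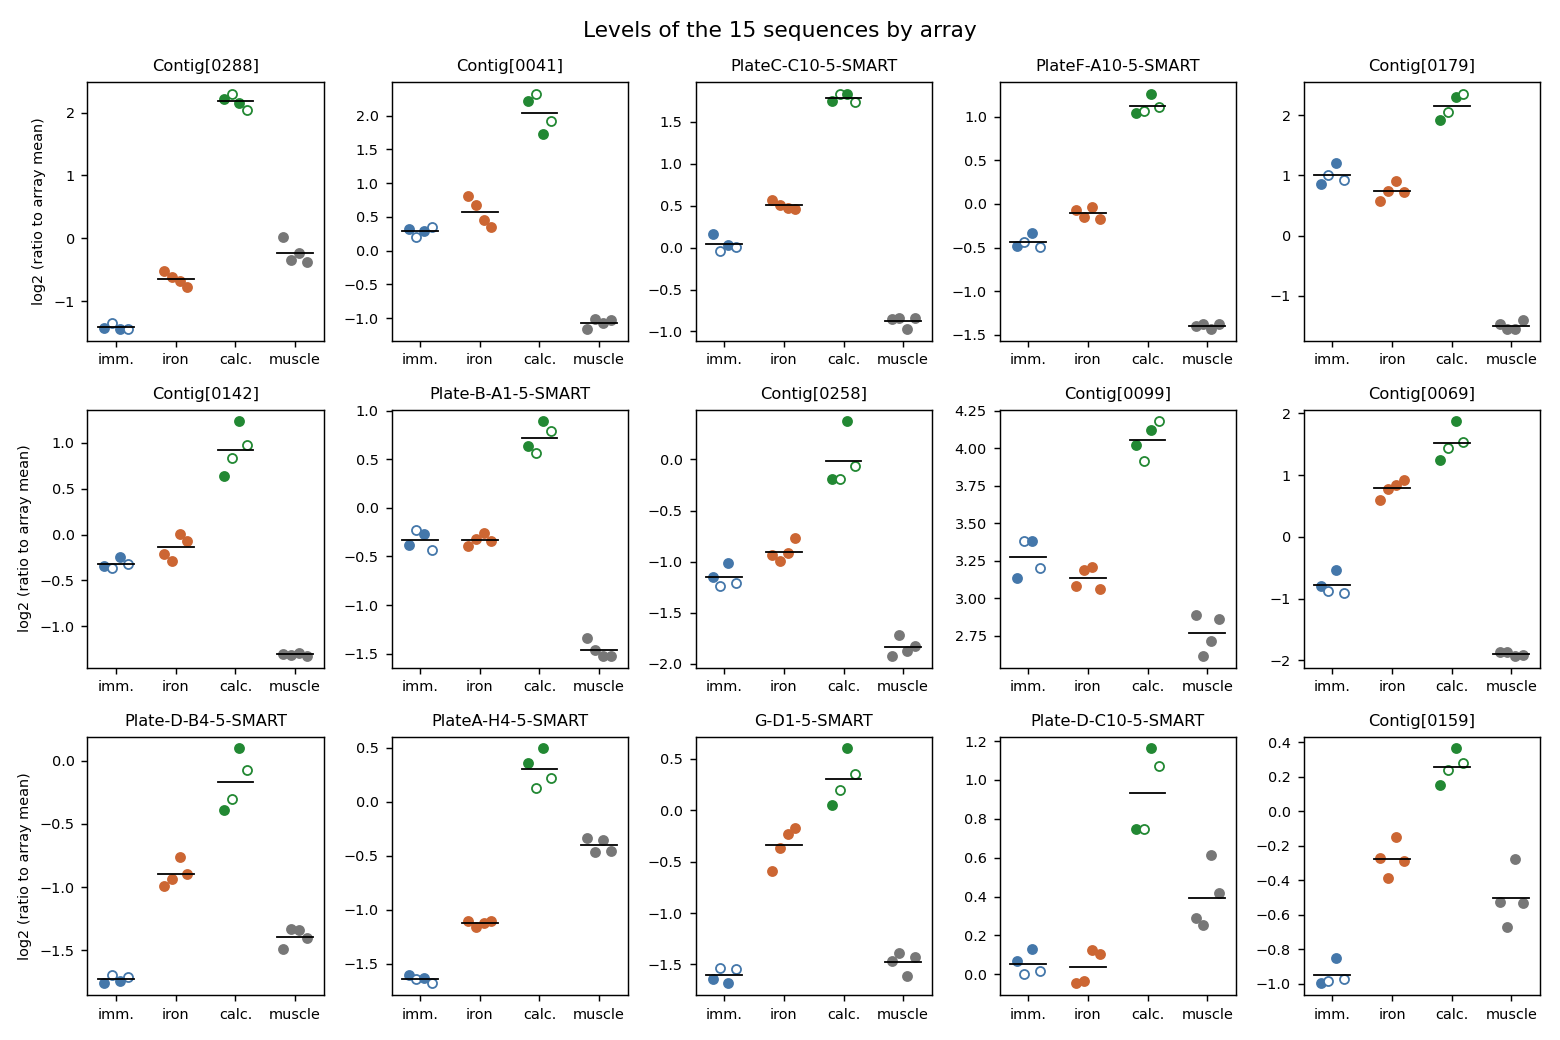
Log2 level (ratio to array mean, mean over the probes of a sequence) of the 15 sequences on each of the 16 arrays, in panels ordered by the size of the calcium peak. Points are arrays (4 per tissue; open points mark the 4 arrays whose scanner file and value column disagree) and bars are tissue means; the calcium arrays lie above all 12 others in every panel, while the order of the other tissues differs.

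In all 15 members the 4 calcium arrays lay above the other 12, as they did in 22 of the 493 sequences (4.46%). The rule makes such a separation likely, and nothing is read from it. The peak, measured as the calcium mean minus the next highest tissue mean, ranged from 2.41 to 0.53. Without the 4 arrays in dispute the range was 2.40 to 0.53. The tissue in second place was iron in 9 members, foot muscle in 3 and immature teeth in 3.

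In 5 of the 9 members with iron in second place, iron teeth lay nearer to immature than to calcium teeth. PlateC-C10-5-SMART had log2 levels of 0.17, -0.04, 0.03 and 0.01 in immature and 0.57, 0.51, 0.47 and 0.46 in iron. It reached 1.75, 1.83, 1.83 and 1.74 in calcium and was at -0.85, -0.85, -0.97 and -0.85 in muscle. Its 4 groups did not overlap, and the iron mean had covered 26.6% of the way from the immature to the calcium mean. PlateF-A10-5-SMART ran in the same order, with means of -0.44 ± 0.07 in immature, -0.11 ± 0.06 in iron, 1.12 ± 0.10 in calcium and -1.40 ± 0.03 in muscle (SD, n = 4). Contig[0041] had a calcium mean of 2.05 ± 0.27, 2.77-fold its iron mean of 0.57 ± 0.21, and covered 16.3% of its rise by the iron section. Contig[0142] covered 14.6%, with means of -0.32 in immature, -0.14 in iron, 0.92 in calcium and -1.31 in muscle. Its immature and iron arrays overlapped. Contig[0258], the last of those that share probe letters, was at -1.15 in immature, -0.91 in iron and -0.02 in calcium, so that 21.9% of its rise was present in iron. Foot muscle was the lowest tissue in these 5 members.

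In the other 4 members with iron in second place, iron teeth lay nearer to calcium than to immature teeth. Contig[0069] had log2 levels of -0.80, -0.87, -0.53 and -0.90 in immature and 0.59, 0.78, 0.85 and 0.91 in iron. In calcium it read 1.25, 1.43, 1.87 and 1.54, and in muscle -1.87, -1.86, -1.93 and -1.92. The groups followed each other without overlap, and iron lay 67.9% of the way up. G-D1-5-SMART read -1.64, -1.54, -1.68 and -1.55 in immature, -0.59, -0.36, -0.23 and -0.17 in iron, 0.05, 0.19, 0.60 and 0.35 in calcium and -1.61 to -1.39 in muscle. Its immature and muscle arrays overlapped at the bottom, and iron lay 66.5% of the way up. Contig[0159] covered 55.9% and Plate-D-B4-5-SMART 53.2%. Plate-D-B4-5-SMART had means of -1.73 in immature, -0.90 in iron, -0.17 in calcium and -1.39 in muscle, and Contig[0159] -0.95, -0.27, 0.26 and -0.50 in the same order. In Plate-D-B4-5-SMART and Contig[0159] immature teeth, not muscle, were the lowest tissue. By mean the same held in G-D1-5-SMART (-1.60 in immature, -1.47 in muscle), though its arrays overlapped.
The 4 members were called higher in iron than in immature teeth, as described below, and their probes with the largest peaks were added for that reason after the values were seen.
Contig[0069]_649_683: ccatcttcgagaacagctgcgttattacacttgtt
G-D1-5-SMART_648_682: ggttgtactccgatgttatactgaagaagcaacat
Contig[0159]_222_260: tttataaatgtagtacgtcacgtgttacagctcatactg
Plate-D-B4-5-SMART_141_175: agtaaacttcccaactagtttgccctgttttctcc

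On the probe Contig[0069]_649_683 the unscaled foreground was 916 to 1137 scanner units in immature, 4070, 4420, 5929 and 8912 in iron, 7647, 5010, 13830 and 11338 in calcium and 139 to 188 in muscle. Iron and calcium arrays overlapped on this probe in unscaled units, with calcium replicates 1 and 2 below iron replicate 4.

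Foot muscle came second in Contig[0288], described above, PlateA-H4-5-SMART and Plate-D-C10-5-SMART. PlateA-H4-5-SMART had log2 levels of -1.60, -1.64, -1.63 and -1.68 in immature, -1.10, -1.16, -1.12 and -1.11 in iron, 0.36, 0.13, 0.49 and 0.22 in calcium and -0.34, -0.47, -0.35 and -0.46 in muscle. Muscle thus lay between the calcium arrays and the other 2 radula sections without overlap, and the calcium mean was 1.63-fold the muscle mean. Plate-D-C10-5-SMART was nearly level in immature (0.05 ± 0.06) and iron (0.04 ± 0.09) teeth, higher in muscle (0.39 ± 0.16) and highest in calcium (0.93 ± 0.21; SD, n = 4). Its lowest calcium array, at 0.75, was 0.13 above its highest muscle array. On its probe Plate-D-C10-5-SMART_7_41 the unscaled foreground, not divided by the array mean, was 3214 to 3389 scanner units in muscle. It was 4188 to 5115 in immature, 4118 to 6218 in iron and 6087 to 10892 in calcium. Muscle was lowest there, but the median foreground per array was also 200.1 to 240.4 in muscle and 237.6 to 426.3 in immature. With no scaling beyond the array mean the peak of the sequence was 0.72.

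Immature teeth came second in Contig[0179], Plate-B-A1-5-SMART and Contig[0099]. Contig[0179] had log2 levels of 0.85, 1.01, 1.20 and 0.93 in immature, 0.58, 0.74, 0.90 and 0.72 in iron, 1.92, 2.05, 2.30 and 2.35 in calcium and -1.55 to -1.41 in muscle. Its immature and iron arrays overlapped, and calcium was 2.23-fold the immature mean. Plate-B-A1-5-SMART had means of -0.33 in both immature and iron teeth, with 0.72 in calcium and -1.46 in muscle. Only 1 of its 2 probes carried a peak of at least 0.5. Contig[0099] was at 3.28 ± 0.12 in immature, 3.14 ± 0.07 in iron, 4.06 ± 0.12 in calcium and 2.77 ± 0.13 in muscle (SD, n = 4).

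The peak of Contig[0099] depended on how the arrays were scaled. It was 0.78 with quantile scaling, 0.24 with no scaling beyond the array mean, 0.13 with 75th percentile scaling, 0.10 with median scaling and -0.36 with cyclic loess, where calcium no longer came first. On its probe Contig[0099]_1096_1131 the unscaled foreground was 21839 to 24386 scanner units in the immature arrays and 23343, 15227, 22882 and 23933 in the calcium arrays, so that these tissues overlapped. The other 14 members had their highest mean in calcium under all 5 scalings, but some no longer met the rule. Contig[0159] fell short of 0.5 with median scaling (0.48) and cyclic loess (0.45), and Plate-B-A1-5-SMART was lost with cyclic loess through the further clause. With the median over probes in place of the mean, Contig[0099] was lost through the clause and G-D1-5-SMART fell to 0.493.

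**Figure D2:**
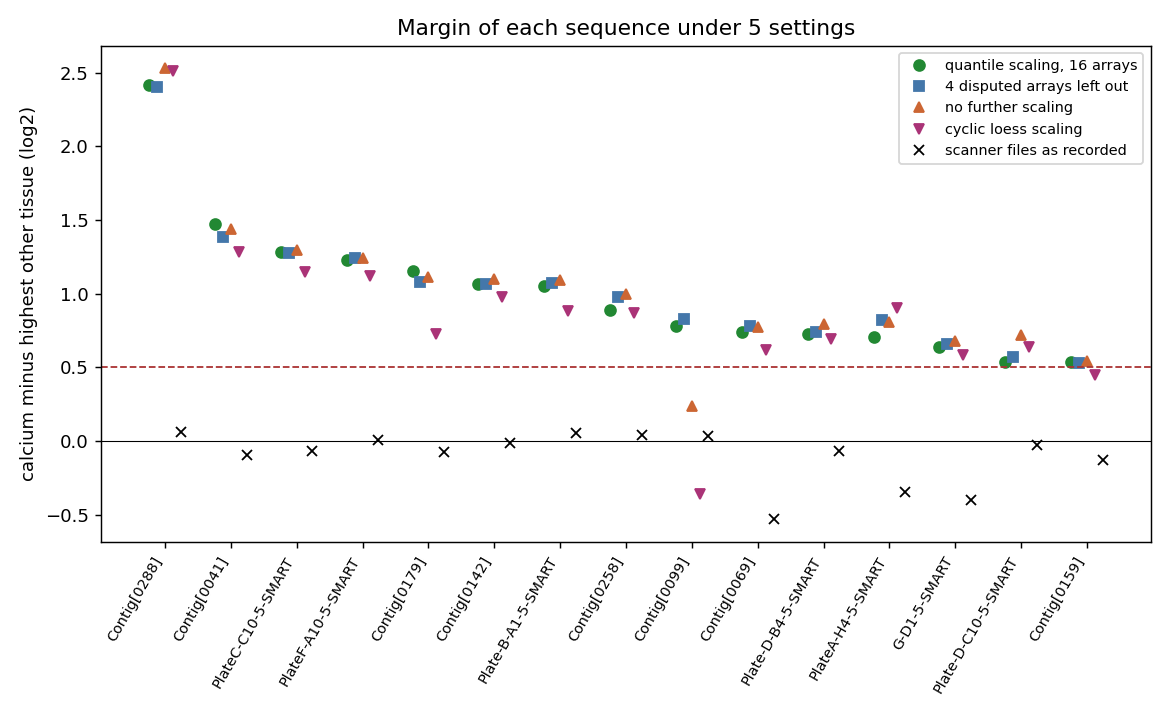
Calcium mean minus the next highest tissue mean (log2) for each of the 15 sequences under 5 settings; the dashed line is the 0.5 of the rule. Of the 15, Contig[0099] alone drops below 0 under cyclic loess (-0.36), and with the scanner files as recorded every value lies between -0.53 and 0.06.

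Near the threshold, Plate-D-C10-5-SMART (peak 0.539) and Contig[0159] (0.534) were just inside, after G-D1-5-SMART at 0.64. Just outside were Plate-B-C9-5-SMART with 0.494, PlateD-E11-5-SMART with 0.476 and Contig[0072] with 0.409. Plate-B-C9-5-SMART had means of -0.76 in immature, 0.93 in iron, 1.43 in calcium and -1.49 in muscle, and PlateD-E11-5-SMART had -1.49 in immature, 1.10 in iron and 1.57 in calcium. In Contig[0072], foot muscle replicate 3 at -0.27 lay above all 4 calcium arrays. A single array decided several memberships. Without calcium replicate 3, the highest calcium array in 11 of the 15 members, 11 members remained and Plate-B-A1-5-SMART, Contig[0258], Plate-D-C10-5-SMART and Contig[0159] were lost. Plate-D-C10-5-SMART also missed the threshold without calcium replicate 4 (0.494) or foot muscle replicate 2 (0.497), and so, narrowly, did Contig[0159] without iron replicate 2. Plate-B-A1-5-SMART and Contig[0258] kept peaks of 0.99 and 0.75 without calcium replicate 3 and were lost through the clause on sequences raised alike in all 3 sections.

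Setting iron against immature teeth asks whether levels of these sequences already differed before the calcium section. Of the 15 members, 8 were higher in iron by limma with a Benjamini-Hochberg adjusted p under 0.05 over all 493 sequences, against 85 sequences in all (17.2%). In the other direction 1 member was lower, against 64 sequences (13%). In either direction 9 members were called, against 149 sequences (30.2%), and 6 members did not pass. All 15 members lay outside the dimmest 25% of the sequences by mean level, and among the 369 sequences outside it 81 were higher (22%) and 56 lower (15.2%). Members were brighter than the array as a whole. Their median level was -0.44 in immature and -0.14 in iron teeth, against -1.43 and -1.40 over all sequences. Neither set of rates is therefore a comparison at equal level, and such a comparison was not made. Without the 4 arrays in dispute 8 members were higher and 0 lower, against 71 and 53 of the 493 sequences. The median difference was 0.33 over the 15 members and -0.01 over all 493 sequences. The 4 members with shared probe letters enter these counts singly although their signals may not be separate.

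Contig[0069] rose most, by 1.56 on the log2 scale (SE 0.11, limma adjusted p = 4.42e-09), which is 2.95-fold. G-D1-5-SMART rose by 1.26 (SE 0.10, adjusted p = 3.23e-08), Plate-D-B4-5-SMART by 0.83 (SE 0.08, adjusted p = 3.61e-07) and Contig[0288] by 0.76 (SE 0.08, adjusted p = 5.71e-07). Contig[0159] rose by 0.68 (SE 0.07, adjusted p = 9.99e-07) and PlateA-H4-5-SMART by 0.52 (SE 0.06, adjusted p = 2.59e-06). In each of these 6 sequences every iron array lay above every immature array, and the calls held under every alternative tried except the scanner files as recorded. Without the 4 arrays in dispute the differences were 1.44 for Contig[0069], 1.30 for G-D1-5-SMART, 0.83 for Plate-D-B4-5-SMART, 0.77 for Contig[0288], 0.64 for Contig[0159] and 0.48 for PlateA-H4-5-SMART. The probe of PlateA-H4-5-SMART with the largest peak is shown to complete the 6, whose other such probes stand above.
PlateA-H4-5-SMART_125_159: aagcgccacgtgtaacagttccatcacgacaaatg

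PlateC-C10-5-SMART rose by 0.46 (SE 0.05, limma adjusted p = 4.84e-07) and PlateF-A10-5-SMART by 0.33 (SE 0.05, adjusted p = 4.66e-05), and neither call was independent of the processing. Without the 4 arrays in dispute both were still called, at 0.40 and 0.30. Both calls were lost with median scaling, at differences of 0.50 and 0.39 (adjusted p = 0.241 and 0.411), and with 75th percentile scaling, at 0.42 and 0.31 (0.0881 and 0.314). The call of PlateF-A10-5-SMART was also lost with cyclic loess (adjusted p = 0.125) and with the median over probes (0.0523). With the median over its probes in place of the mean, PlateC-C10-5-SMART turned to -0.20 (adjusted p = 0.134). Its 5 probes did not run alike: 4 were higher in iron, by 0.54 to 0.91, and PlateC-C10-5-SMART_289_323 was at -0.31 (adjusted p over probes = 0.0721). In all 8 of the members called higher, the 4 iron arrays lay above the 4 immature arrays, as they did in Contig[0041] and Contig[0258]. That separation was seen in 89 of the 493 sequences (18.1%).

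Contig[0179] was the member called lower in iron, with a log2 difference of -0.26 (SE 0.10, limma adjusted p = 0.0499). Its arrays overlapped, the call was lost on leaving out any of 11 single arrays (adjusted p up to 0.18), and without the 4 arrays in dispute the adjusted p was 0.134. Contig[0041] was at 0.29 (SE 0.11, adjusted p = 0.0771), and with the replicate number as a block it was called (SE 0.10, adjusted p = 0.046). It was also called without iron replicate 4 (adjusted p = 0.0284), calcium replicate 2 (0.0464) or calcium replicate 3 (0.0317), with no further scaling (0.016), with array weights (0.00741) and with the slide sector as a block (0.0274), but not without the 4 arrays in dispute (0.22). Contig[0258] was at 0.25 (adjusted p = 0.0875) and was called without calcium replicate 3 (0.00537), with array weights (0.00219) and with the sector block (0.0412), but not without the 4 arrays in dispute (0.449). Contig[0099] was at -0.14 (adjusted p = 0.221) and was called lower with array weights (0.0365) and cyclic loess (0.000221). The intervals of the remaining members at 95%, not adjusted, ran from -0.02 to 0.38 for Contig[0142], from -0.15 to 0.14 for Plate-B-A1-5-SMART, from -0.30 to 0.02 for Contig[0099] and from -0.22 to 0.19 for Plate-D-C10-5-SMART.

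**Figure D3:**
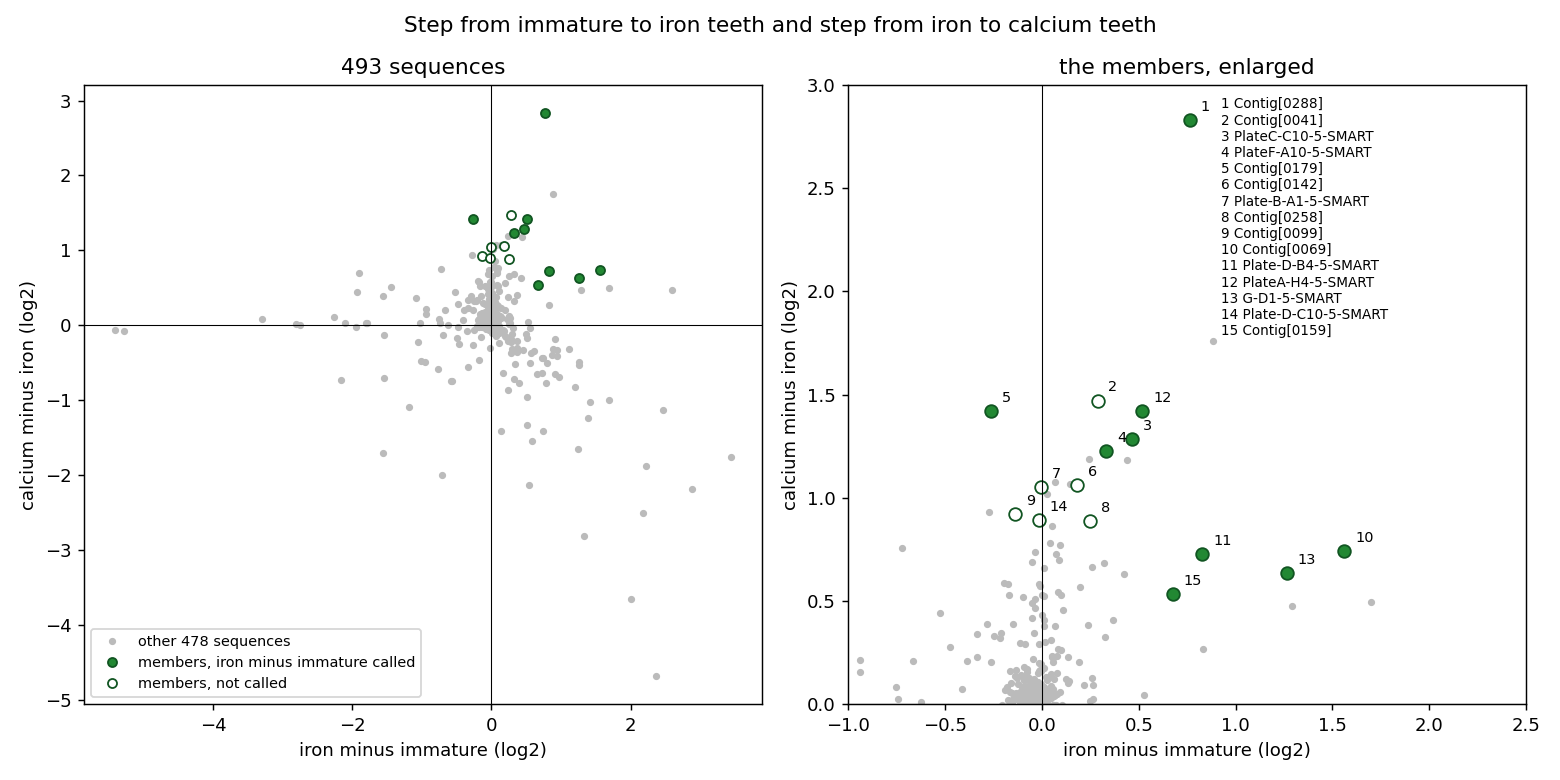
Difference between iron and immature teeth (x, log2) and between calcium and iron teeth (y, log2) for 493 sequences, with the region of the 15 members enlarged on the right. All members lie above 0 on the y axis, as the rule requires; on the x axis 8 filled points are called higher and 1, Contig[0179], lower, while open points did not pass the test.

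The probes of a member told much the same about the tissue of the peak but not about its size. All 65 probes had their highest mean in calcium, as did 403 of the 2240 probes (18%), 52 of them by at least 0.5 (61 of 2240, 2.72%), and on 57 the 4 calcium arrays lay above the other 12 (74 of 2240, 3.3%). Since the means over these probes chose the members, these counts are descriptions. Between iron and immature teeth 28 of the 65 probes were called higher (12.6% of all 2240 probes) and 0 lower (9.96%) in the fit over single probes, limma adjusted p under 0.05. The probes of one sequence share its RNA and some overlap, so they are not replicates.

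Peaks of single probes ranged from 0.02 to 3.07 with a median of 0.84. The smallest belonged to G-D1-5-SMART_149_183, whose iron and calcium means were -1.66 and -1.64, while G-D1-5-SMART_648_682 on the same sequence had a peak of 1.19. A probe's peak contains its calcium level, so a relation between them is partly built in. The 8 probes with a calcium level below -1 had peaks of 0.02 to 0.47, and the 25 above 2 had peaks of 0.48 to 3.07. No background values were available for these arrays, and the part of background in the peaks of dim probes was not tested. In Contig[0288] the peak was 1.33 on the dim probe Contig[0288]_237_271 and 2.54, 2.73 and 3.07 on the other 3.

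**Figure D4:**
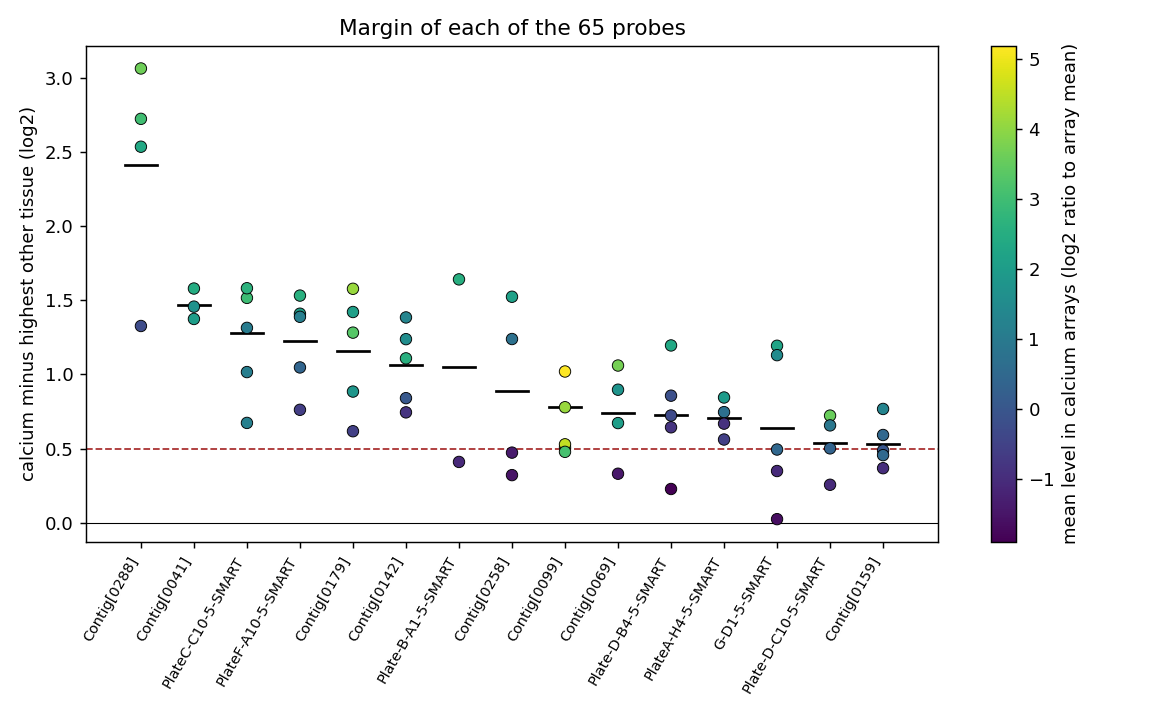
Calcium mean minus the next highest tissue mean (log2) on each of the 65 probes, by sequence, coloured by the probe's mean log2 level in calcium; bars are the values of the sequences and the dashed line is the 0.5 of the rule. In most columns the dimmest (darkest) probe of the sequence lies lowest, but not in Contig[0041], PlateC-C10-5-SMART or PlateA-H4-5-SMART. The lowest value is 0.02 and the highest 3.07.

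In features of name and sequence, 8 of the 15 members were contigs by name (53.3%) against 109 of the 493 sequences (22.1%). The members had a median length of 529 nt (606 nt over all sequences) and their probes a median GC content of 42.9% (42.1% over all probes). Mean levels of the probes of one sequence over the 16 arrays, calcium included, differed by a median of 2.15 (log2) from lowest to highest, against 1.20 over all sequences. The members were also brighter, with a median level of -0.14 in iron teeth against -1.40 over all sequences, and the spread was not compared at equal level. These are differences in this set as it stands, and they were not tested.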

How the data were processed

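Total RNA was isolated in Trizol and Cy5-labelled by means of the Kreatech ampULSe kit, per the labels' protocols. Per the file headers, each scanner table held the mean foreground intensity of 2240 spots, with no background column. The authors' deposited value table held, as a ratio, that intensity over the mean of an array, with no background correction, as found by setting its columns against the scanner tables. The image software is not stated in the sources used here.

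Ratios were log2-transformed, quantile-scaled over 16 arrays and averaged over the probes of a sequence (R 4.3.3, limma 3.58.1). Iron minus immature was fitted with a mean per tissue over all 16 arrays and tested with eBayes, two-sided, with Benjamini-Hochberg adjustment over 493 sequences. Spread in these tests is that among arrays of different pools. The number of arrays limits the precision.

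Members, lists and named sequences were chosen with earlier results of these data known. The sequences named are the 10 with the largest peaks, the 3 just inside and the 3 just outside the threshold, and members called in the tested comparison, up to 5 in each direction. PlateA-H4-5-SMART and the further sequences with separate calcium arrays fall outside this rule and were named after their values were seen. Immature and iron arrays of the same replicate number deviated together (r 0.237 to 0.707 over the 4 numbers), so a fit with the number as a block was run beside the main one, which has none. The labels do not say whether such pools held the same animals. The 4 arrays of each number also lay in 4 different slide sectors, and whether they shared a slide was not tested. Alternatives changed the scaling, the probe summary, the source of values, the arrays used and the model.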

Additional observations from a re-analysis of the deposited data

Results flagged for a closer look

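Of the 60 groups of 4 arrays (15 sequences in 4 tissues), 3 held an array far from the others by Dixon's criterion, where chance gives about 1 in 20. Contig[0288] was at -1.35 in immature replicate 2 and at -1.44 in each of the other 3 immature arrays. PlateC-C10-5-SMART was at -0.969 in foot muscle replicate 3 and between -0.850 and -0.845 in the others. Contig[0159] was at -0.850 in immature replicate 3 and between -0.997 and -0.973 in the others. Immature replicate 2 is among the arrays whose files disagree.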

How the results depend on the processing

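Of the members' calls between iron and immature teeth, those of Contig[0069], G-D1-5-SMART, Plate-D-B4-5-SMART, Contig[0288], Contig[0159] and PlateA-H4-5-SMART held under all alternatives but the scanner files as recorded. With those files, corrected by normexp, 0 sequences and 0 of the 15 members met the rule, 57 sequences were called (43 higher, 14 lower), and 0 members were called higher and 0 lower (0 and 2 at an unadjusted p under 0.05). There the peak was -0.10 for Contig[0041], -0.0654 for PlateC-C10-5-SMART, -0.0747 for Contig[0179], -0.0109 for Contig[0142], -0.53 for Contig[0069], -0.0702 for Plate-D-B4-5-SMART, -0.35 for PlateA-H4-5-SMART, -0.40 for G-D1-5-SMART, -0.0256 for Plate-D-C10-5-SMART and -0.13 for Contig[0159]. The iron minus immature difference was -1.04 for Contig[0288], -0.46 for PlateC-C10-5-SMART, -0.50 for PlateF-A10-5-SMART and -0.46 for PlateA-H4-5-SMART. In that setting 4 arrays carry values that the value table gives to the other tissue. Immature and calcium means are thereby mixed, so its small peaks and lost calls are no separate check.

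By limma, 0 members were called lower with median scaling (0 at an unadjusted p under 0.05), with no further scaling (1), with 75th percentile scaling (1), with the median over probes (1), with the disputed arrays left out (1) and with probes tested singly, and 2 with cyclic loess or array weights. No further scaling called 96 sequences (35 lower) and 75th percentile scaling 98 (52 higher). The median difference over all sequences was -0.13 with 75th percentile and -0.01 with quantile scaling. Contig[0099] had a peak of -0.36 under cyclic loess, and PlateC-C10-5-SMART a difference of -0.20 with the median over probes. The causes were not tested. A threshold of 1 in place of 0.5 left 7 sequences, all of them members, as any sequence past the stricter threshold must be.

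With the replicate number as a block, 184 sequences were called (99 higher, 85 lower), 9 members higher and 1 lower. Beyond Contig[0041], it changed no member's call. On leaving out single arrays, 12 to 17 sequences met the rule, 11 to 15 members were kept, and 137 to 154 sequences were called (78 to 87 higher, 58 to 68 lower), with 8 to 10 members higher and 0 to 1 lower. Without measured background, signal over background could not be judged.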

Other observations

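Outside the 15 sequences, 7 others also had all 4 calcium arrays above the other 12, with smaller peaks. They were Plate-B-C9-5-SMART (0.49), PlateD-E11-5-SMART (0.48), Contig[0120] (0.28), Plate-B-H4-5-SMART (0.18), Contig[0123] (0.16), Contig[0059] (0.11) and Plate-C-F6-5-SMART (0.07). Iron was second in the first 2, immature teeth in Contig[0059] and foot muscle in the other 4. In PlateD-E11-5-SMART the gap between the lowest calcium and the highest other array was 0.03, and in Plate-B-C9-5-SMART it was 0.22.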
